A study of Torulaspora microellipsoides with 8 samples.

Results

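Autophagy and vacuolar proteolysis were examined in the yeast T. microellipsoides at the level of mRNA, in 3 cultures of white cells and 3 cultures of opaque cells. The members were the transcribed regions named for any ATG gene or for one of 20 further genes of the vacuole. They were picked by name, without a filter on expression, but the list was chosen with earlier results of these data known. They numbered 48 of the 4464 regions of the deposited table and carried 38 of its 3307 names. Of these, 17 regions (11 names) encode hydrolases and 31 regions (27 names) belong to the autophagy machinery. Of the 20 further names, 4 had no region: LAP4, which is another name of APE1, VPS30, the protease inhibitor PBI2, and the vacuolar GTPase gene YPT7. Nor did a region carry the name of ATG8, ATG13 or ATG17, so the Atg8 protein itself and most of the Atg1 complex were not analysed here.

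White and opaque cells were both of 1 strain of the NCYC collection, in which white colonies give rise to sectors of opaque cells that are larger and hold more DNA. Both were grown in yeast extract with glucose at 23 °C, and the labels state that 25 ml cultures were started at an OD600 of 0.05 and collected in log phase at an OD600 of 1.0. The methods of the study give a larger volume and faster shaking for these cultures than the labels do. The labels give no allele, agent or time point that differed between the groups, and the cell types were assigned from plating and microscopy. No transcript that defines white or opaque cells was fixed here, so the labels were not checked against one. Whether the 3 cultures of a cell type came from separate colonies is not given in the sources used here, and p-values therefore measure the spread between these cultures only.

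In S. cerevisiae, from whose proteins the names were taken, autophagy encloses cytoplasm in a double membrane that fuses with the vacuole, where hydrolases break the content down and transporters return the products. The Atg1 kinase complex starts the process, a phosphatidylinositol 3-kinase marks the membrane, Atg9 and Atg2 supply lipid, and a pair of ubiquitin-like systems attach Atg8 to it. Many of the hydrolases are made as inactive precursors that proteinase A (Pep4) and proteinase B (Prb1) process, and a few reach the vacuole by the same machinery as autophagy. Well-fed cells keep bulk autophagy low through the kinase complex TORC1.

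Levels are TMM-normalized counts relative to the size of each library (CPM), with library values given in the order 1, 2, 3 for each cell type. Libraries held 24948791 to 50126043 counts. A difference is the log2 fold change of opaque minus white cells with its standard error (SE), from edgeR's quasi-likelihood test over all 4404 tested regions with Benjamini-Hochberg adjustment, and a region passed at an adjusted p under 0.05. CPM do not give molecules per cell, and fewer cells with a transcript cannot be told apart from less of it in each cell. All 48 regions passed the filter on low counts, but only 44 held at least 10 counts in every library. In a fit with that stricter filter, 26 members were lower in opaque cells, 4 of them at least 4-fold, and 9 were higher.

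Opaque cells had less of 30 of the 48 regions and more of 9, and the other 9 did not pass. Lower regions thus made up 62.5% of the members, against 37.6% of all tested regions, and higher ones 18.8% against 36.6%. By at least 2-fold, 18 members were lower (13.0% of all tested regions were) and 1 was higher, LAP3 (15.6% of all). By at least 4-fold, 5 members were lower (5.25% of all) and 0 were higher (5.93% of all, and DESeq2 also put 0 members there). The median log2 fold change was -0.45 over the members and -0.021 over all tested regions. The white and opaque libraries did not overlap for 41 members (77.8% of all tested regions), with all opaque libraries below for 31 (39.9% of all) and above for 10 (37.9% of all). Upper-quartile scaling and total counts moved the median of all regions by -0.12 and -0.16, and with these 32 and 34 members were lower and 8 and 8 higher.

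Among the hydrolases, the 3 largest decreases were of exopeptidases of the vacuole lumen, which remove amino acids from the ends of peptides. PRC1, carboxypeptidase Y, was at 1200.3, 1364 and 1148 CPM in the white libraries and 191, 192 and 211 CPM in the opaque libraries. It is encoded at scaffold 10 from 76131 to 77720, with 72.2% identity to its match. White libraries were all higher, and PRC1 fell by 2.65 log2 units (edgeR adjusted p = 2.8e-10, SE 0.085), or 6.26-fold. APE1, aminopeptidase I, a major cargo of the cytoplasm-to-vacuole pathway that autophagy proteins carry out, was at 1009, 1098 and 948 CPM in the white libraries and 189, 151 and 174 CPM in the opaque libraries. APE3, aminopeptidase Y, was at 765, 896 and 787 CPM in the white libraries and 141, 141 and 137 CPM in the opaque libraries. The groups were far apart in both, and APE1 fell by 2.57 (edgeR adjusted p = 8.7e-10, SE 0.096). APE3 fell by 2.55 (edgeR adjusted p = 2.2e-10, SE 0.078). AMS1, the vacuolar alpha-mannosidase and another cargo of that pathway, was at 404, 426 and 436 CPM in the white libraries and 107, 98.00 and 93.4 CPM in the opaque libraries. It fell by 2.08 log2 units (edgeR adjusted p = 4.8e-10, SE 0.072). These 4 are all of the hydrolases at least 4-fold lower in opaque cells.

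PEP4, proteinase A, which activates the precursors of other vacuolar hydrolases, matches best of all members, at 84.0% identity. It was at 1467, 1709 and 1418 CPM in the white libraries and 837, 782 and 814 CPM in the opaque libraries. The libraries did not overlap, and PEP4 fell by 0.92 log2 units (edgeR adjusted p = 1.1e-06, SE 0.08). For PRC1, whose precursor it processes, the log2 fold change above was -2.65. PRB1, proteinase B, which shares in this activation, differed in the other direction. Its main region of 1433 bp was at 344, 391 and 358 CPM in the white libraries and 778, 599 and 553 CPM in the opaque libraries. Opaque library 1 was the highest and all opaque libraries lay above all white ones. PRB1 rose by 0.82 log2 units (edgeR adjusted p = 1.6e-04, SE 0.12), and by 0.64 to 0.90 when each library was left out in turn. A second PRB1 region, of 86 bp in the same assembled transcript, was at 16.9, 20.3 and 15.2 CPM in the white libraries and 42.6, 25.2 and 27.2 CPM in the opaque libraries and also passed, with 0.87 (edgeR adjusted p = 0.0053, SE 0.21). Per kilobase and within a library, PEP4 was 5.25, 5.38 and 4.88 times as abundant as the main PRB1 region in the white libraries and 1.33, 1.61 and 1.81 times in the opaque libraries.

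LAP3, a cysteine aminopeptidase related to bleomycin hydrolase that in S. cerevisiae lies mostly in the cytoplasm, showed the only increase of at least 2-fold among the members. It was at 577, 521 and 538 CPM in the white libraries and 1762, 1505 and 1779 CPM in the opaque libraries. Every opaque library was above every white one, and LAP3 rose by 1.63 log2 units (edgeR adjusted p = 1.0e-08, SE 0.082), or 3.09-fold. The LAP3 region spans scaffold 1 from 16554 to 17897, with 76.8% identity. APE4, an aspartyl aminopeptidase that in S. cerevisiae is also found in the cytoplasm and carried to the vacuole, was at 228, 217 and 238 CPM in the white libraries and 222, 222 and 230.3 CPM in the opaque libraries. These libraries overlapped, and its log2 fold change of -0.018 (edgeR adjusted p = 0.8, SE 0.061) did not pass, though with total counts it did (-0.18, edgeR adjusted p = 0.036). The other region named APE4 is 77 bp long at 34.6% identity, held 32, 29 and 28 counts in white and 16, 5 and 9 in opaque libraries, and had a log2 fold change of -1.44 (edgeR adjusted p = 0.0056).

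**Figure D1:**
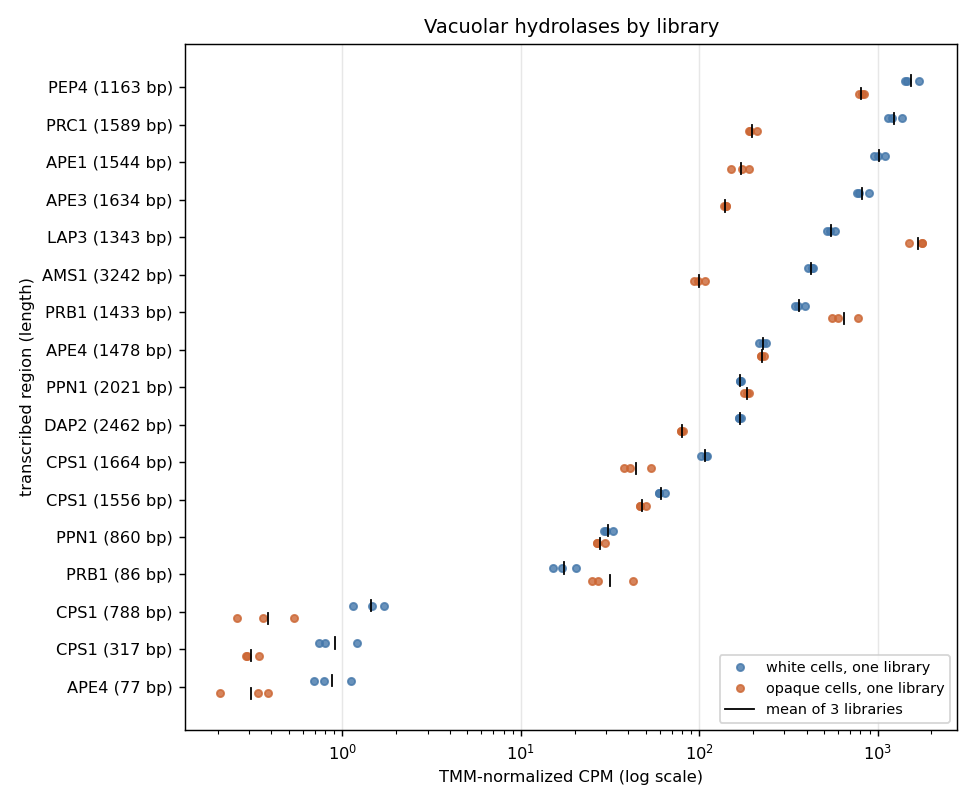
TMM-normalized CPM (log axis) of the 17 hydrolase regions in each library, with white libraries in blue, opaque libraries in orange and black ticks at the mean of 3. PRC1, APE1, APE3 and AMS1 are well to the left in opaque cells, whereas LAP3 and both PRB1 regions are to the right and the longer APE4 region is unmoved within its spread.

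DAP2, dipeptidyl aminopeptidase B of the vacuole membrane, was at 167, 172 and 167 CPM in the white libraries and 80.9, 78.7 and 79.5 CPM in the opaque libraries. The libraries of a cell type were close together, and DAP2 fell by 1.08 log2 units (edgeR adjusted p = 1.7e-08, SE 0.058). CPS1, carboxypeptidase S, which releases amino acids from peptides in the vacuole, was the name of 4 regions. The best match, of 1664 bp at 59.2% identity, was at 110.4, 109 and 102 CPM in the white libraries and 53.4, 40.8 and 37.8 CPM in the opaque libraries and fell by 1.27 (edgeR adjusted p = 5.6e-06, SE 0.12). A second region on scaffold 7, at 41.4% identity, was at 59.3, 59.2 and 64.7 CPM in the white libraries and 46.7, 49.99 and 46.5 CPM in the opaque libraries and fell by 0.36 (edgeR adjusted p = 6.5e-04, SE 0.068). All 4 were lower in opaque cells without overlap, by unequal amounts. The other CPS1 regions are neighbours on scaffold 13 at 37.4% and 40.0% identity. They held at most 63 counts in any library and fell by 1.57 and 1.91 (edgeR adjusted p = 0.0026 and 4.5e-04). PPN1, a vacuolar endopolyphosphatase, was at 172, 170.1 and 168 CPM in the white libraries and 189.7, 178 and 185 CPM in the opaque libraries, and the opaque libraries lay above the white ones. Its log2 fold change of 0.12 (edgeR adjusted p = 0.092, SE 0.058) did not pass and was -0.040 with total counts. A second PPN1 region at 24.3% identity, the lowest of all members, was at 30.1, 29.1 and 32.6 CPM in the white libraries and 29.8, 26.9 and 26.6 CPM in the opaque libraries with a log2 fold change of -0.14 (edgeR adjusted p = 0.16), which passed only with upper-quartile scaling or total counts (-0.26 and -0.30, edgeR adjusted p = 0.019 and 0.016).

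Levels of different genes were compared as CPM per kilobase, with 1 region for each of the 11 hydrolase names. In white cells PEP4 was the highest, at 1317 ± 134 (SD, n = 3), followed by PRC1 at 779 ± 70.9, APE1 at 659.6 ± 48.7 and APE3 at 499.5 ± 42.99. LAP3 followed them, at 406 ± 21.5 CPM per kb. In opaque cells LAP3 was the highest, at 1252 ± 114, ahead of PEP4 at 697 ± 23.8 and PRB1 at 449 ± 82.97 CPM per kb (SD, n = 3). LAP3 made up 9.98, 8.17 and 9.55% of the summed CPM per kb in the white libraries and 40.4, 39.5 and 43.1% in the opaque libraries. For PRC1 the shares were 17.5, 18.1 and 17.2% in the white and 3.70, 4.26 and 4.32% in the opaque libraries. The cell types thus differed in which peptidase transcript was the most abundant as well as in the total.

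**Figure D2:**
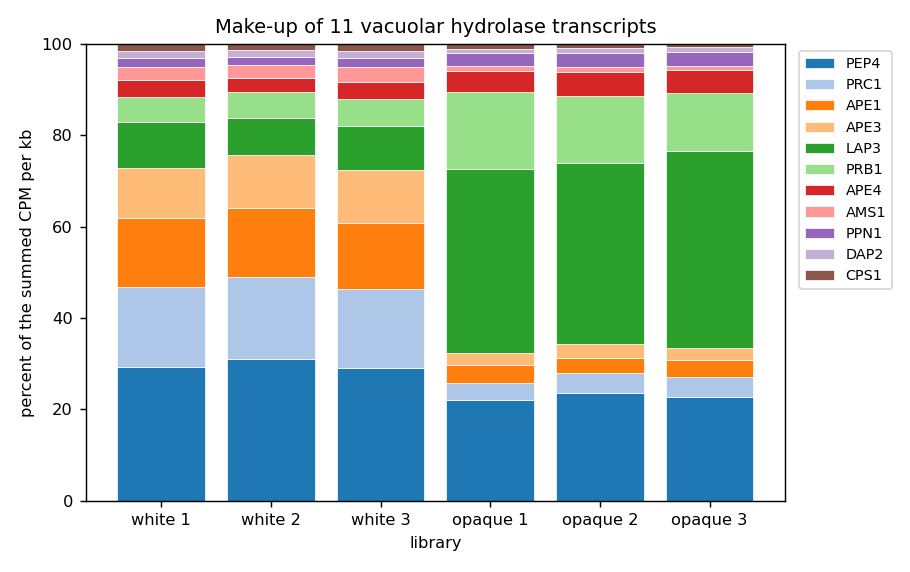
Share of each of 11 hydrolase transcripts in their summed CPM per kb (percent), 1 bar per library and 1 region per name. LAP3 takes 8.17 to 9.98% of the white bars and 39.5 to 43.1% of the opaque bars, and PRC1, APE1 and APE3 are narrower in every opaque bar.

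Summed over the 17 hydrolase regions, the level was 6554, 7185 and 6424 CPM in the white libraries and 4670.4, 4090.4 and 4395 CPM in the opaque libraries. White cells were therefore 1.53 times as high, and 2.28 times as high without LAP3. Over the 31 regions of the machinery the sums were 1947, 2033 and 1868 CPM in the white libraries and 1489, 1443 and 1468 CPM in the opaque libraries, 1.33 times as high in white cells. With total counts in place of TMM the ratios were 1.71, 2.54 and 1.48.

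The hydrolases were compared with the autophagy machinery by counts and medians. Opaque cells had less of 11 of the 17 hydrolase regions (64.7%) and more of 3, and 3 did not pass. Of the machinery 19 of 31 were lower (61.3%), 6 were higher and 6 did not pass. The shares were close to each other, and both were above the 37.6% of all tested regions. The medians differed more, at -1.08 for the hydrolases and -0.42 for the machinery. For the 14 regions named for proteases the median was -1.18. This gap was smaller when every library had to hold at least 10 counts. The APE4 region of 77 bp, both CPS1 regions of scaffold 13 and an ATG5 region then dropped out. The medians were -0.67 and -0.42 with that filter. Among regions with a mean of at least 50 CPM, the median was -1.0001 for the 12 hydrolase regions and -0.44 for the 13 machinery regions. That level is a mean over both cell types, and these medians have no background of all such regions beside them. The part of low counts in the gap was not tested. With 1 region per name, the median was -1.08 over 11 hydrolases and -0.42 over 27 machinery genes. The spread within a class was wide, with hydrolases between -2.65 and 1.63 and machinery genes, at 1 region per name, between -1.90 and 0.85. At least 4-fold decreases were seen in 4 of the 11 hydrolase names and 0 of the 27 machinery names represented in this way. Of all tested regions, 5.25% fell by that much. For ATG5 this choice took the region of 98 bp and left out that of 197 bp, which fell by 4.07.

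**Figure D3:**
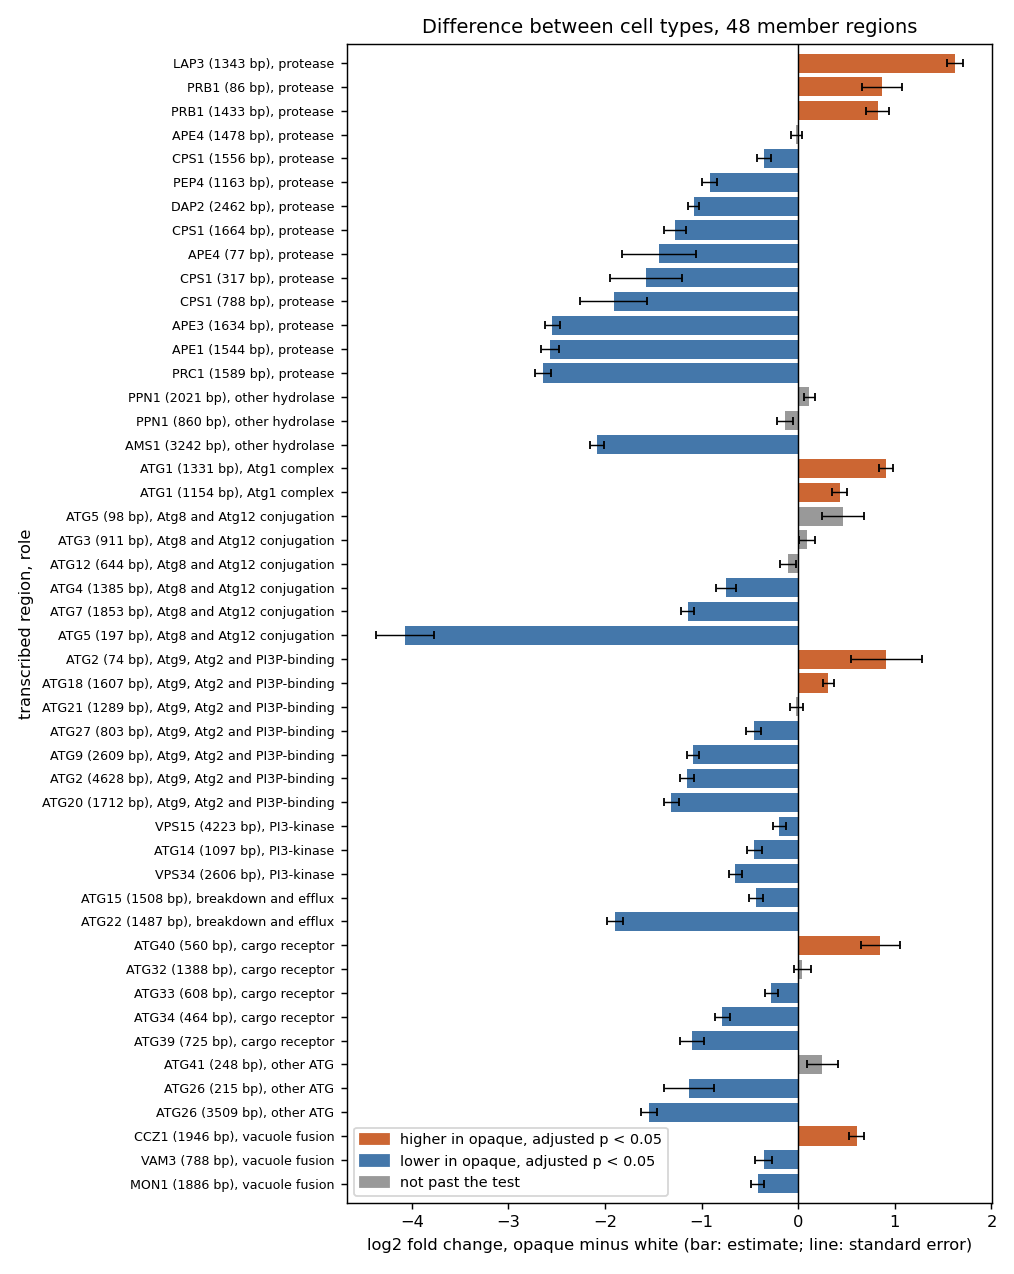
Log2 fold change of opaque minus white cells with its SE for all 48 regions, ordered by role (orange higher, blue lower, grey not past the test). Hydrolases reach from -2.65 to 1.63, and apart from the 197 bp ATG5 region at -4.07 no machinery region lies below -1.90.

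The machinery is described in the order in which it acts. ATG1, the kinase that starts autophagy, was the only gene of its complex with regions. Both lie in 1 assembled transcript on scaffold 2. The upstream one, from 974719 to 976050, matches at 72.6% identity and was at 27.7, 26.4 and 28.98 CPM in the white libraries and 53.6, 52.9 and 49.3 CPM in the opaque libraries. The downstream one, which ends at 977403, was at 45.1, 43.8 and 37.98 CPM in the white libraries and 56.2, 57.4 and 57.1 CPM in the opaque libraries. Both were higher in every opaque library, but by unequal amounts, 0.91 (edgeR adjusted p = 6.4e-07, SE 0.074) and 0.43 (edgeR adjusted p = 4.0e-04, SE 0.077). Per kilobase the upstream region was at 0.532, 0.522 and 0.661 times the downstream one in the white libraries and 0.827, 0.799 and 0.749 times in the opaque libraries, without overlap. With 3 against 3 libraries, an exact two-sided permutation test of such a ratio cannot give a p under 0.1.

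The 3 genes of the phosphatidylinositol 3-kinase were all lower in opaque cells, as were 37.6% of all tested regions. ATG14, the subunit that directs the kinase to autophagy, was the most abundant per kilobase, with 48.1, 49.01 and 42.9 CPM in the white libraries and 32.9, 34.96 and 34.2 CPM in the opaque libraries. It fell by 0.46 log2 units (edgeR adjusted p = 2.4e-04, SE 0.077). VPS34, the lipid kinase itself, fell by 0.65 (edgeR adjusted p = 4.4e-06). VPS15, its regulatory partner, fell by 0.20 (edgeR adjusted p = 0.025) and did not pass without white library 1 (edgeR, adjusted p = 0.065) or opaque library 3 (edgeR, adjusted p = 0.057).

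Among the genes that supply and shape the membrane, the falls included both partners of the lipid supply. ATG9, the membrane protein of the vesicles from which the autophagosome grows, was at 75.99, 76.6 and 72.4 CPM in the white libraries and 34.4, 34.96 and 36.5 CPM in the opaque libraries. ATG2, which transfers lipid, was at 141, 141 and 134 CPM in the white libraries and 66.2, 63.5 and 57.8 CPM in the opaque libraries in its region of 4628 bp. Neither overlapped. ATG9 fell by 1.09 (edgeR adjusted p = 3.9e-08, SE 0.064) and ATG2 fell by 1.15 (edgeR adjusted p = 3.9e-08, SE 0.068). This ATG2 region lies near the start of its scaffold. Of the 5 flanking regions, 2 were at least 4-fold lower and 0 at least 4-fold higher in opaque cells. The median of the 5 was -0.80, and the part of this stretch in the ATG2 value was not tested. ATG20, a sorting nexin, was at 103, 116 and 99.5 CPM in the white libraries and 45.3, 39.6 and 43.00 CPM in the opaque libraries and fell by 1.31 (edgeR adjusted p = 4.5e-08, SE 0.079). ATG27, a membrane protein that travels with Atg9 and was the most abundant of the group per kilobase, was at 148, 159 and 131 CPM in the white libraries and 108, 99.5 and 109.8 CPM in the opaque libraries and fell by 0.46 (edgeR adjusted p = 2.9e-04). The PROPPIN genes, which encode proteins that bind the lipid made by the kinase, went differently. ATG18, the partner of Atg2, was higher in opaque cells by 0.31 (edgeR adjusted p = 5.7e-04), whereas ATG21 had a log2 fold change of -0.020 (edgeR adjusted p = 0.79), which did not pass except with total counts (-0.18, edgeR adjusted p = 0.025). A second region named ATG2, of 74 bp, held 10 to 33 counts per library and had a log2 fold change of 0.91 (edgeR adjusted p = 0.042). That call was lost with DESeq2 (adjusted p = 0.057), with upper-quartile scaling or total counts (edgeR adjusted p = 0.071 and 0.088), and without white library 1 or 2 or opaque library 2 or 3 (edgeR adjusted p = 0.11 to 0.13).

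In the systems that attach Atg8 to membranes, 3 of 6 regions were lower, 0 were higher and 3 did not pass (0 were higher with DESeq2, and 0 at an unadjusted p under 0.05). Of all tested regions, 37.6% were lower and 36.6% were higher. ATG7, the activating enzyme shared by both systems, was at 97.6, 104 and 92.9 CPM in the white libraries and 47.03, 42.8 and 43.2 CPM in the opaque libraries. It fell by 1.14 log2 units (edgeR adjusted p = 4.6e-08, SE 0.069). ATG4, the protease that trims Atg8 and releases it again, fell by 0.75 (edgeR adjusted p = 4.8e-05). ATG3, the conjugating enzyme for Atg8 and the most abundant of the group per kilobase over all 6 libraries, was at 44.6, 46.3 and 39.8 CPM in the white libraries and 48.1, 48.5 and 42.6 CPM in the opaque libraries, and the libraries overlapped. Its log2 fold change of 0.094 (edgeR adjusted p = 0.33, SE 0.083) did not pass and was negative with upper-quartile scaling (-0.021) and total counts (-0.061). ATG12, the ubiquitin-like protein joined to Atg5, was at -0.11 (edgeR adjusted p = 0.28), but passed as lower with upper-quartile scaling and total counts (edgeR adjusted p = 0.028 and 0.012).

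ATG5 was the name of 2 short regions at low identity. The one on scaffold 5 is 197 bp long, matches at 33.8% and held 115, 116 and 140 counts in the white and 12, 5 and 3 in the opaque libraries, or 4.03, 3.17 and 3.47 CPM in the white libraries and 0.252, 0.207 and 0.128 CPM in the opaque libraries. It fell by 4.07 (edgeR adjusted p = 2.5e-07, SE 0.30), the largest change of any member. The 6 regions nearest to it, 3 on each side, were also at least 4-fold lower in opaque cells, between -5.71 and -4.44. They include TPO1, named for a polyamine transporter, which was at 106, 119 and 108 CPM in the white and 2.60, 1.86 and 1.58 CPM in the opaque libraries. The ATG5 region thus fell together with its stretch of the scaffold, and the part of the stretch in its value was not tested. The other ATG5 region, of 98 bp on scaffold 8, was at 3.65, 2.73 and 4.19 CPM in the white libraries and 4.13, 4.35 and 6.26 CPM in the opaque libraries. Its log2 fold change of 0.46 (edgeR adjusted p = 0.076) did not pass, although it did without white library 3 (0.61, edgeR adjusted p = 0.049) and with the culture number as a block (0.47, edgeR adjusted p = 0.036). The regions lie on different scaffolds, and whether either is part of the gene for Atg5 was not tested.

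**Figure D4:**
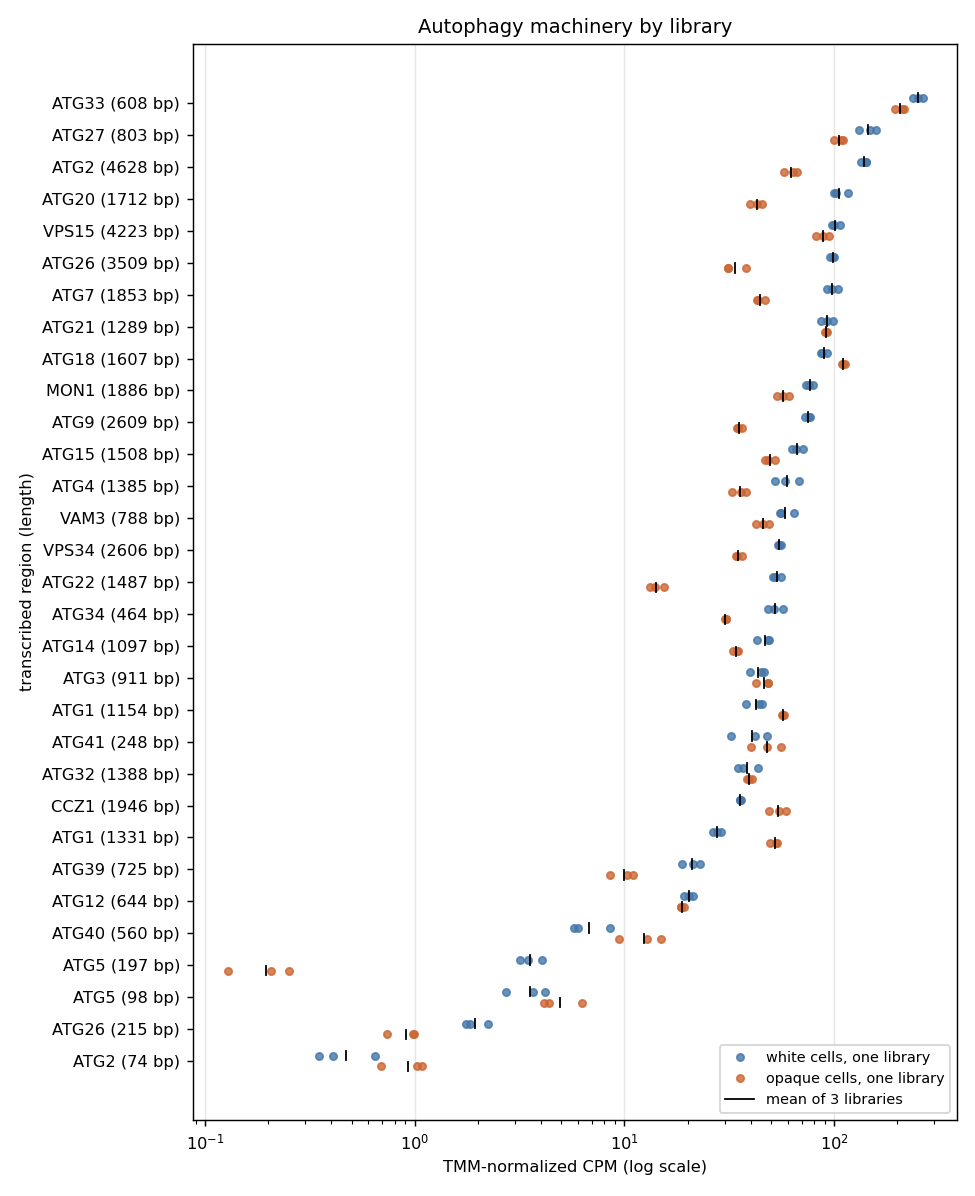
TMM-normalized CPM (log axis) of the 31 machinery regions in each library, with white libraries in blue, opaque libraries in orange and black ticks at the mean of 3. ATG22, ATG26, ATG20, ATG7, the 4628 bp ATG2 region and ATG9 lie to the left in opaque cells. CCZ1, ATG40, both ATG1 regions and the 74 bp ATG2 region lie to the right. The 197 bp ATG5 region is the farthest apart, below 5 CPM in every library.

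Cargo receptors, which link a cargo to the forming membrane, and ATG33, which was grouped with them here, varied among themselves. ATG33, an outer mitochondrial membrane protein of mitophagy, was the most abundant machinery region per kilobase, with 251, 264 and 237 CPM in the white libraries and 214, 195 and 211 CPM in the opaque libraries. It fell by 0.28 log2 units (edgeR adjusted p = 0.003, SE 0.067). ATG39, a receptor for the nuclear envelope and endoplasmic reticulum, was at 21.3, 18.7 and 23.00 CPM in the white libraries and 8.52, 10.2 and 10.99 CPM in the opaque libraries and fell by 1.10 (edgeR adjusted p = 1.0e-05, SE 0.12). Of its 6 flanking regions, 2 were at least 4-fold lower and 0 at least 4-fold higher in opaque cells. Their median was -0.98, and the part of this stretch in the ATG39 value was not tested. ATG40, a receptor for the endoplasmic reticulum, moved the other way, with 5.999, 5.73 and 8.56 CPM in the white libraries and 9.44, 12.8 and 14.9 CPM in the opaque libraries. It rose by 0.85 log2 units (edgeR adjusted p = 0.0035, SE 0.20). ATG34, a receptor for Ams1, fell by 0.79 (edgeR adjusted p = 3.8e-06). ATG32, the receptor for mitochondria, had a log2 fold change of 0.040 (edgeR adjusted p = 0.69, SE 0.089), which did not pass and was negative with upper-quartile scaling (-0.076) and total counts (-0.12). The names of these regions rest on low identity, from 26.1% for ATG34 to 41.1% for ATG32.

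At the vacuole, VAM3, the syntaxin of vacuole fusion, was at 55.6, 64.5 and 55.3 CPM in the white libraries and 45.8, 42.3 and 48.6 CPM in the opaque libraries. It fell by 0.36 log2 units (edgeR adjusted p = 0.0023, SE 0.083). CCZ1 and MON1 encode partners in 1 complex that activates the fusion GTPase Ypt7, and they moved apart. CCZ1 was at 35.4, 35.8 and 35.4 CPM in the white libraries and 48.96, 54.7 and 58.6 CPM in the opaque libraries and rose by 0.60 (edgeR adjusted p = 3.4e-05, SE 0.079). MON1 was at 73.7, 75.8 and 79.6 CPM in the white libraries and 53.4, 57.1 and 60.9 CPM in the opaque libraries and fell by 0.42 (edgeR adjusted p = 2.0e-04, SE 0.069). Inside the vacuole, ATG15, the lipase that opens autophagic bodies, was at 65.99, 70.8 and 62.8 CPM in the white libraries and 48.5, 52.4 and 46.6 CPM in the opaque libraries and fell by 0.44 (edgeR adjusted p = 2.4e-04). ATG22, which exports amino acids from the vacuole, was at 55.99, 51.1 and 52.3 CPM in the white libraries and 15.4, 13.9 and 13.2 CPM in the opaque libraries. It fell by 1.90 log2 units (edgeR adjusted p = 4.7e-09, SE 0.087), or 3.72-fold, the largest decrease among machinery regions over 200 bp.

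The remaining ATG names were ATG26 and ATG41. ATG26, a sterol glucosyltransferase, was at 95.8, 100.1 and 98.96 CPM in the white libraries and 38.2, 31.1 and 31.3 CPM in the opaque libraries in its region of 3509 bp. It fell by 1.55 log2 units (edgeR adjusted p = 2.0e-08, SE 0.084). A second ATG26 region, of 215 bp at 25.7% identity, was at 2.25, 1.75 and 1.84 CPM in the white libraries and 0.735, 0.994 and 0.98 CPM in the opaque libraries and fell by 1.13 (edgeR adjusted p = 0.0022). ATG41, which in S. cerevisiae acts with Atg9, was at 41.7, 47.7 and 32.1 CPM in the white libraries and 55.8, 40.3 and 47.9 CPM in the opaque libraries over 248 bp, and the libraries overlapped. Its log2 fold change of 0.25 (edgeR adjusted p = 0.19) did not pass, but did without white library 2 (0.39, edgeR adjusted p = 0.049).

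The annotation gave further properties that the choice of members did not use. With 1 region per name, the hydrolases matched their S. cerevisiae proteins at a median of 72.2% identity (55.6 to 84.0%) and the machinery at 54.6% (26.1 to 71.4%). These hydrolase regions were 1163 to 3242 bp long and these machinery regions 98 to 4628 bp. Of the 48 members, 5 were shorter than 200 bp and 0 overlapped another region. Among the 43 members of at least 200 bp, 28 were lower, 7 were higher and 8 did not pass, with a median of -0.46. Of the 25 members with a mean of at least 50 CPM, 19 were lower, 3 were higher and 3 did not pass. Shares over all regions of such length or level were not computed, so these counts have no background beside them.

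Neighbouring steps of the same pathway were read from lists of further genes, 1 region per name. For comparison with each list, 37.6% of all tested regions were lower and 36.6% were higher. All 5 other vacuolar hydrolases tested were lower, and their median was -1.40. YSP3, a subtilisin-like protease named at 28.6% identity, had a log2 fold change of -4.18 and SGA1, a glucoamylase, of -1.50 (edgeR, adjusted p = 1.0e-09 and 4.1e-06). Of 10 genes of the vacuolar ATPase, which acidifies the vacuole, 7 were lower and 3 did not pass, with a median of -0.51. VMA5 and VMA2 of its soluble part had -1.09 and -0.86 (edgeR, adjusted p = 5.8e-08 and 2.7e-07). Of 19 genes that sort proteins to the vacuole, 11 were lower, 1 was higher and 7 did not pass, with a median of -0.31. PEP1, the sorting receptor of carboxypeptidase Y, and VPS13, a lipid transfer protein, had -1.17 and -1.50 (edgeR, adjusted p = 3.0e-07 and 2.2e-09), and VPS27, which starts the sorting of membrane proteins into vesicles of endosomes, had 0.24 (edgeR, adjusted p = 0.0064) but did not pass with upper-quartile scaling or total counts.

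Of 7 genes of the tethering complexes HOPS and CORVET, 4 were lower and 3 did not pass, with a median of -0.31. With upper-quartile scaling or total counts all 7 were lower, as were 1937 and 2021 of all 4404 tested regions. PEP5 and VAM6 had -0.42 and -0.39 (edgeR, adjusted p = 3.5e-04 and 0.0018). Of 4 SNARE and SNARE-recycling genes, 3 were lower, led by SEC17 and the vacuolar SNARE NYV1 at -0.79 and -0.75, and YKT6 was higher at 0.43 (edgeR, adjusted p = 3.2e-07, 9.1e-07 and 8.7e-05). The proteasome, which degrades proteins outside the vacuole, went the other way. Opaque cells had more of 24 of its 26 tested genes and less of 0, and the median was 0.42 (0 were lower with DESeq2, and 0 at an unadjusted p under 0.05). None reached 2-fold, and PUP3 and RPN9 led with 0.79 and 0.67 (edgeR, adjusted p = 7.9e-07 and 3.0e-06). With total counts 20 were higher and 0 were lower (1317 and 2021 of all 4404 tested regions).

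**Figure D5:**
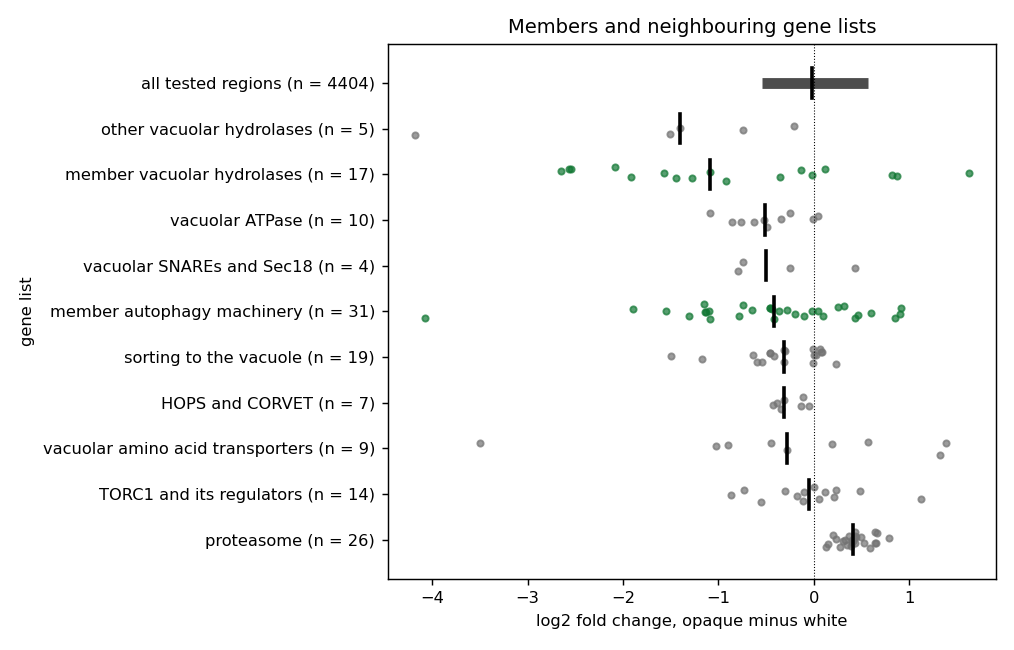
Log2 fold change of opaque minus white cells in the hydrolase and machinery regions (green) and in neighbouring lists (grey, 1 region per name), with black lines at medians and a bar for the interquartile range of all 4404 tested regions (-0.54 to 0.57). The hydrolases spread from -2.65 to 1.63 around -1.08, and the proteasome genes lie together around 0.42.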

How the data were processed

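The mRNA of 3 cultures of each cell type was measured. As the methods of the study state, stranded mRNA libraries were aligned with STAR to the CLIB830T genome, cufflinks transcripts of all libraries were merged, and BLAST against S. cerevisiae proteins gave the region names. The authors deposited whole-number counts per region without normalization. The deposited files also give the bases covered and region length, and the covered fraction that the authors made from them, which were used in checks only. Percent identity is as deposited in the annotation. The counting tool and its use of strand are not given in the sources used here, so antisense reads may be included. No genome was used here, so no sequence is shown. The 2 DNA samples were not used.

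Regions were joined by scaffold and coordinates, and a name is the first token after the last comma of the alias. Counts were tested with edgeR 4.0.16 in R 4.3.3 (TMM, filterByExpr, robust quasi-likelihood fit, cell type as the factor). The SE is the log2 fold change divided by the square root of F. DESeq2 1.42.0 was an alternative, as were other scalings and filters, a block on culture number, leaving out each library, and counts summed per name. The fit was run on simulated data with 100 planted changes of 1 log2 unit and 100 of 2 among 4404 regions. It found 99 and 100 of them, and 7 of its 206 calls were false. Far more regions changed in the real data, so the error rate at that extent of change was not tested. No 2 libraries of the same cell type were found to be duplicates, and pairs across cell types were not checked. Total counts were 24948791 to 50126043. Members and lists were chosen with earlier results of these data known. All hydrolase regions are given by library. Of the machinery, those changed at least 2-fold and the most abundant of each role are, and the rest by fold change. Of other lists, up to 2 genes per direction are named, and ATG5 and the short second regions are described beside them.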

Additional observations from a re-analysis of the deposited data

How the results depend on the processing

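Of the 48 tested members, 37 kept their call and direction in each of the 14 alternative fits that gave them a value. The fit with at least 10 counts in every library gave one for 44 regions and that on counts summed per name for 38 names. The other 11 were regions near the threshold or near 0 (PPN1, APE4, ATG12, ATG2, ATG21, ATG3, ATG32, ATG41, ATG5 and VPS15, with PPN1 counted for 2 regions). In the main fit 39 members changed, or 81.2%, against 74.2% of all tested regions. Where regions were fitted singly, 35 to 42 members changed, with 8 to 10 higher and 26 to 34 lower, and 4 to 7 were lower by at least 4-fold. The 35 changed and 26 lower came from the fit that tested 44 members. The median of the hydrolases was -1.20 with upper-quartile scaling, -1.24 with total counts, -0.67 with at least 10 counts in every library and -0.96 with counts summed per name, against -1.08. That of the machinery was -0.54 after upper-quartile scaling and -0.58 for total counts, against -0.42. The difference of both medians, -0.66, was -0.25 with at least 10 counts in every library, where fewer regions are tested, and -0.48 with counts summed per name, where fewer features are. It was -0.72 to -0.66 when each library was left out. A sign turned in 6 regions, none of which had passed. PPN1 was at -0.040 with total counts, and ATG3 at -0.021 and -0.061 under the scalings just named. ATG32 was at -0.076 with upper-quartile scaling, -0.12 under total counts and -0.0078 when counts were summed. ATG5 of scaffold 8 was at -0.53 with summed counts, which then include the region of scaffold 5, so this sum is no measure of one gene. With each library left out, APE4 was at -0.054 to 0.0063, ATG21 at -0.083 to 0.030 and ATG32 at -0.042 to 0.13. The causes were not tested. With the culture number as a replicate block, 40 members changed, and apart from the ATG5 region of scaffold 8 no call changed. Deviations from the cell-type means had correlations of -0.020, -0.055 and 0.23 between libraries of the same number. Only those numbered 3 correlated best with their own number. With 3 libraries per cell type, these values cannot decide whether the numbers pair the cultures. Regions of at least 200 bp without overlap, or 1 region per name, left 35 of 43 and 30 of 38 members changed, and counts summed per name left 31 of 38. Few counts limit the precision of regions such as those of CPS1 on scaffold 13.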

Other observations

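Transporters that move amino acids across the vacuole membrane, the step after proteolysis, are given by name. Opaque cells had more of 4 of 9 tested names (44.4%, against 36.6% of all tested regions) and less of 4 (44.4%, against 37.6%), with a median log2 fold change of -0.28. Under upper-quartile scaling or total counts 3 were higher and 4 lower. VBA2 and VBA1, importers of basic amino acids, had -3.50 and -1.02 (edgeR, adjusted p = 1.3e-10 and 3.6e-08), whereas YPQ1 and YPQ2, PQ-loop transporters of basic amino acids, had 1.39 and 1.32 (edgeR, adjusted p = 2.6e-08 and 1.3e-08). Of 14 genes of TORC1 and its regulators, opaque cells had more of 4 (28.6%) and less of 5 (35.7%), shares near those of all regions just given, and the median was -0.050. Under upper-quartile scaling or total counts these were 2 and 7. With both scalings, fewer of all tested regions were higher and more were lower than in the main fit. PIB2, an activator of TORC1 at the vacuole, and the kinase gene SCH9 had 1.12 and 0.48 (edgeR, adjusted p = 5.5e-08 and 2.5e-05). MTC5, of the SEACAT complex, and TIP41, of the phosphatase branch, had -0.87 and -0.73 (edgeR, adjusted p = 1.3e-06 and 8.3e-07).

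For 28 of the 48 members, none of the 3 regions on each side changed at least 4-fold. Of all tested regions 11.2% changed by that much, and flanks were not counted for regions other than members. For the ATG5 region of scaffold 5 all 6 were at least 4-fold lower in opaque cells. Beside it, 3 regions named YKL071W were at -4.44, -4.47 and -4.86, and ART5 and BCH1 at -4.53 and -4.57. This ATG5 region ends 11698 bp before the end of the last region of its scaffold. Beside CPS1 on scaffold 13, both ASG1 regions were at -4.71 and -6.22 and CYS4 at 4.08 in the opposite direction, with at most 63 counts per library in the CPS1 regions themselves.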
